A study of Homo sapiens with 12 samples.

Results

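DNA replication and mitosis genes are described here across MEC1 and JVM2, 2 established human lines of neoplastic B cells. The 45 genes were chosen by symbol, as genes of replication licensing, nucleotide supply, S phase and mitosis. The rule used no measured value, but the list was drawn up with earlier results of these data known. All 45 were found in both tables, among 22441 genes of the MEC1 table and 17144 of the JVM2 table, and all 45 passed the filter on low counts in both lines. Total RNA was sequenced after depletion of ribosomal RNA, in 3 replicates for each of 4 populations. MEC1-2B17 and JVM2-2B17 cells carried a pcDNA6 vector with the coding sequence of human *UGT2B17*, an enzyme that attaches glucuronic acid to steroids and other small molecules. JVM2-CTRL cells carried the empty pcDNA6 vector, while MEC1-CTRL cells carried a stable shRNA knock-down of *UGT2B17*. The 2B17 cells and the JVM2-CTRL cells were selected with blasticidin and the MEC1-CTRL cells with puromycin, so that in MEC1 the construct, the antibiotic and the *UGT2B17* level cannot be told apart. The sources used here do not state whether each population was 1 clone. The comparison of the arms asks whether the RNA of the proliferation machinery differed between cells with high and low *UGT2B17*. The paper on these cells reported a shorter doubling time of the 2B17 cells in both lines. How the RNA levels relate to that growth was not tested.

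A dividing cell copies its DNA from origins that are first loaded with the MCM helicase by *CDC6* and *CDT1*, a step called licensing, and then fired in S phase with *CDC45* and the GINS complex. Entry into S phase is driven by E2F transcription factors and by cyclin E and cyclin A bound to *CDK2*, and entry into mitosis by cyclin B bound to *CDK1*. Kinesins and the spindle checkpoint then share out the chromosomes, and many of these genes are transcribed in waves, the licensing genes before S phase and the mitotic genes in G2. In bulk RNA, fewer cells in a phase and less RNA per cell cannot be told apart.

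Libraries held 31762649 to 37744991 counts in MEC1 and 8809179 to 11231330 in JVM2, where a member had at least 169 counts in every library. Levels are in CPM, the count of a gene scaled to a TMM-adjusted library size, and their SD is that of 3 replicates. The log2FC compares 2B17 with CTRL cells on the log2 scale, above 0 where 2B17 cells were higher, and is given with its standard error (SE). FDR is the *P* of edgeR's quasi-likelihood test after Benjamini-Hochberg adjustment for every gene tested in the line. Genes with an FDR below 0.05 are said to have changed, risen or fallen. An exact permutation test of 3 replicates against 3 cannot give a *P* under 0.1. *UGT2B17* itself went from 10.99 ± 0.691 to 21.1 ± 1.37 CPM in MEC1 (log2FC 0.94, SE 0.069, FDR = 2.0e-09) and from 27.8 ± 1.83 to 38.7 ± 5.67 CPM in JVM2 (log2FC 0.48, SE 0.11, FDR = 0.0048). JVM2-2B17 replicate 2 stood apart from the other replicates of its arm, with a mean chi-square per gene of 7.70 and 7.89 against them, where they differed from each other by 2.14. Its values of the 45 genes lay a median of 6.97% from the mean of the arm, against 3.46% and 3.91%, and calls that depend on it are given with and without it. In MEC1-CTRL, replicate 3 had a mean chi-square per gene of 7.56 and 6.11 against replicates 1 and 2, which differed by 2.34. It was the highest of its arm for 28 of the 45 genes and lay a median of 1.91% from the arm's mean, against 1.60% and 1.25%. Without it, the count of the 45 genes that changed in MEC1 stayed at 24. Mitochondrial transcripts took 0.561% to 0.723% of counts in JVM2-CTRL and 0.164% to 0.382% in JVM2-2B17, and 0.816% to 0.886% over both MEC1 arms. Ribosomal protein genes took a larger share in 2B17 cells, at 8.68% to 9.31% against 6.62% to 6.95% in JVM2 and 8.39% to 8.48% against 7.79% to 7.87% in MEC1. All 8 B-cell markers were present in both lines, with a summed level of 3646 to 3744 CPM in MEC1-CTRL, 3296 to 3479 CPM in MEC1-2B17, 3433 to 3534 CPM in JVM2-CTRL and 3324 to 4188 CPM in JVM2-2B17. Of 5 T-cell markers, 4 were listed in MEC1, with a sum of 19.7 to 19.9 CPM in CTRL and 13.4 to 14.01 CPM in 2B17 cells, most of it *TRAC*, while *CD3E* reached no more than 0.122 CPM and *CD3D* was not listed. In JVM2 only *TRAC* was listed, at 44.5 to 49.3 CPM in CTRL and 31.8 to 39.6 CPM in 2B17 cells. The myeloid list, with 5 of 5 genes in MEC1 and 3 of 5 in JVM2, summed to 2.36 to 2.94 CPM in MEC1-CTRL, 4.70 to 5.29 CPM in MEC1-2B17, 5.42 to 6.61 CPM in JVM2-CTRL and 11.2 to 13.8 CPM in JVM2-2B17. It was led by *ITGAM*, and *CD14* did not exceed 0.150 CPM in MEC1 and was not listed in JVM2. The epithelial and stromal list, with 3 of 6 genes in MEC1 and 2 of 6 in JVM2, did not exceed 4.85 CPM in MEC1 and 20.4 CPM in JVM2. The part of these shares and markers in the results was not tested.

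In MEC1, 24 of the 45 genes changed, 7 of them higher and 17 lower in MEC1-2B17 cells. Over all 16581 genes tested in MEC1, 41.7% changed, 20.0% higher and 21.6% lower. Among the 6742 genes with a mean level at least that of the lowest of the 45, 52.7% changed, so that the share of the 45 that changed was close to that of genes of their level. The median log2FC was -0.05 over the 45 genes and 0.00 over all genes tested, and the median size without regard to sign was 0.13 and 0.17. *CDT1* and *CCNE2* alone changed by more than 1.3-fold, which 17.7% of all genes did. The arms did not overlap for 25 of the 45, against 50.1% of all genes.

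In JVM2, 11 of the 45 changed, *MCM3* higher and the other 10 lower in JVM2-2B17 cells. Over all 13021 genes tested in JVM2, 29.3% changed, 14.1% higher and 15.3% lower, and the share was 30.9% among the 7364 genes with a mean level at least that of the lowest of the 45. The median log2FC was -0.10 over the 45 genes and 0.00 over all genes, and 38 of the 45 values were below 0. *E2F2*, *CDC25B* and *CCNE1* changed by more than 1.3-fold, against 17.4% of all genes. The arms did not overlap for 21 genes, 20 of them lower in 2B17 cells, against 45.2% of all genes. Without JVM2-2B17 replicate 2, 19 of the 45 changed, 18 lower and *MCM3* higher, where 34.1% of all genes did. All 11 genes were among these 19, and the 8 others were *MCM2*, *MCM7*, *GINS4*, *RRM1*, *FOXM1*, *BUB1B*, *TTK* and *KIF23*.

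**Figure D1:**
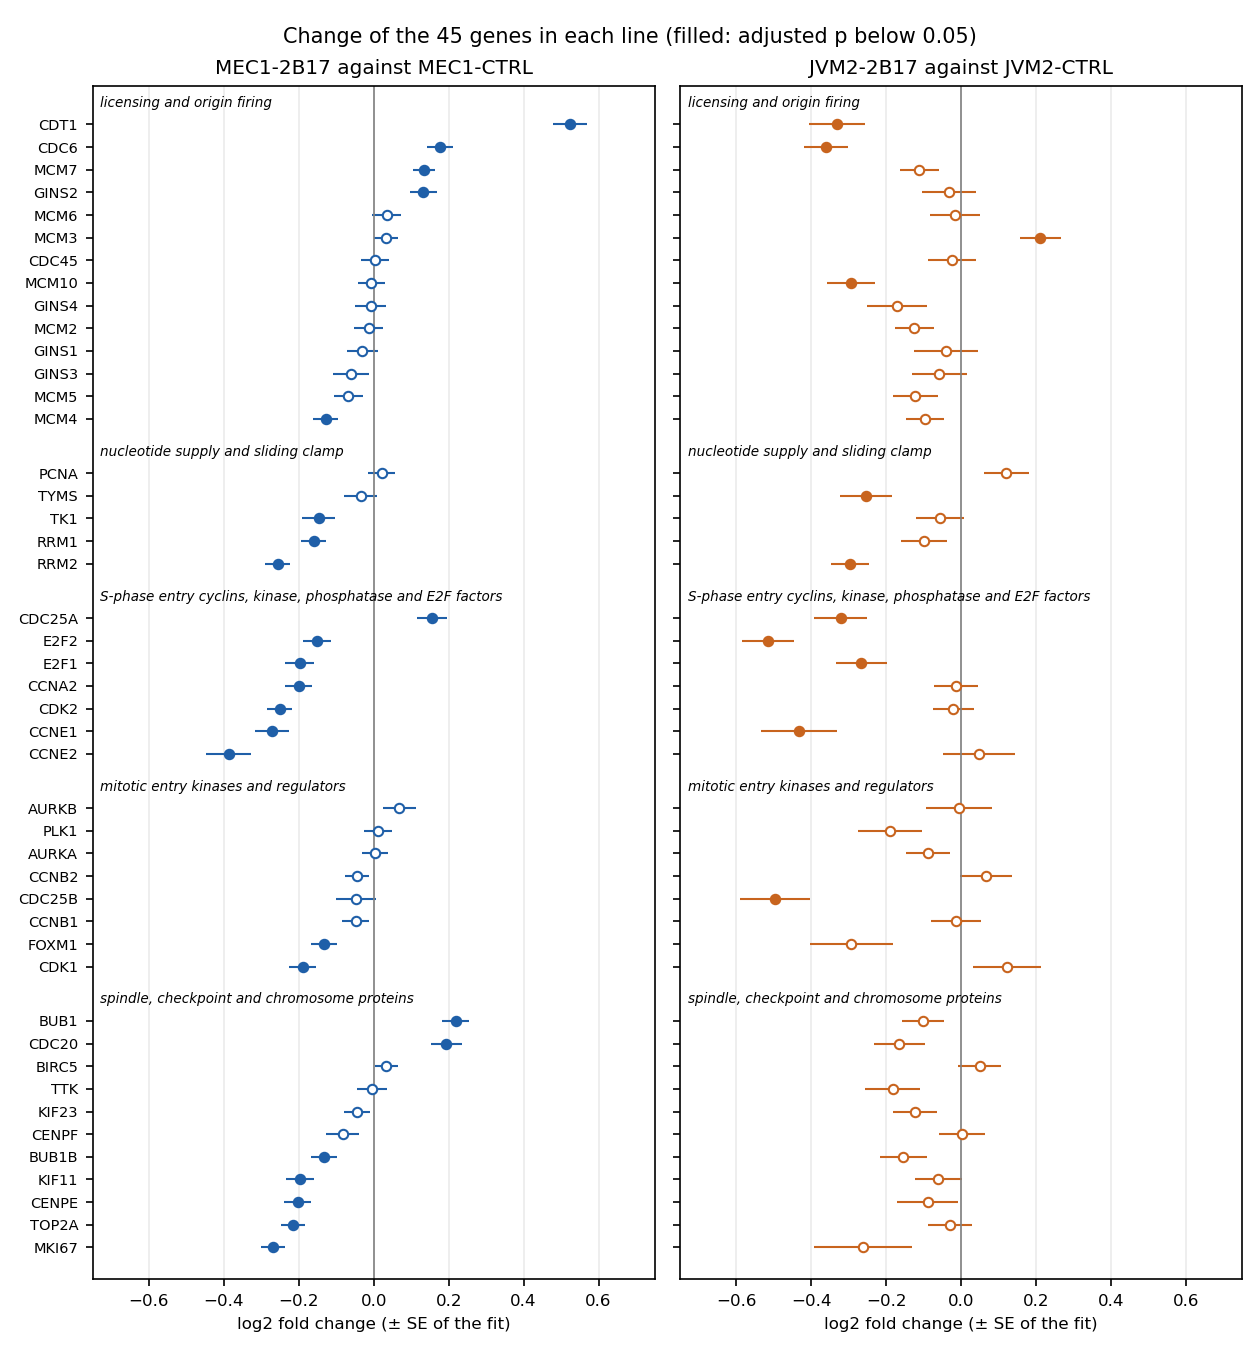
Log2FC of 2B17 against CTRL cells (horizontal axis, ± SE) for each of the 45 genes, grouped by role and ordered within a role by the MEC1 value, in MEC1 (left) and JVM2 (right). Filled points passed the test, 24 in MEC1 and 11 in JVM2, where 41.7% and 29.3% of all genes did. The S-phase entry genes are the group with the largest share of filled points, 7 of 7 and 4 of 7.

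The stretches just before the start sites of 6 genes the results turn on are shown, since these genes moved in opposite directions in the lines (*CDT1*, *CDC6*, *CDC25A*), fell in both (*E2F1*), or were among the 3 largest rises (*CDC20*) or falls (*MKI67*) in MEC1. They were those genes, among the ones that changed in both lines or were among the 3 largest rises or falls of a line, whose 250 bases before the RefSeq start held a motif and no annotated exon. Capitals mark 3 motifs on either strand, the E2F-type letters GCGGGAA or GCGCGAA, the letters TTTGAA or TTCGAA of the cell cycle homology region (CHR), and the CCAAT box. CHR and CCAAT letters overlap by 1 base in *MKI67*. The sequences are from RefSeq on GRCh38, written 5′ to 3′ on the strand of the gene. *CDT1* is at chr16:88803539-88803788 (+), *CDC6* at chr17:40287629-40287878 (+), *CDC25A* at chr3:48188418-48188667 (-), *E2F1* at chr20:33686386-33686635 (-), *CDC20* at chr1:43358731-43358980 (+) and *MKI67* at chr10:128126424-128126673 (-).
CDT1: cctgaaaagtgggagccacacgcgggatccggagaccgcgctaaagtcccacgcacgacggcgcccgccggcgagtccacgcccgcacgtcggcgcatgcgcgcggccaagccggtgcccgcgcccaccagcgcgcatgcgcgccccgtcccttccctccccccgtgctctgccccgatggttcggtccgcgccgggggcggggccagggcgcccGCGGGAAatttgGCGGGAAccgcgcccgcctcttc
CDC6: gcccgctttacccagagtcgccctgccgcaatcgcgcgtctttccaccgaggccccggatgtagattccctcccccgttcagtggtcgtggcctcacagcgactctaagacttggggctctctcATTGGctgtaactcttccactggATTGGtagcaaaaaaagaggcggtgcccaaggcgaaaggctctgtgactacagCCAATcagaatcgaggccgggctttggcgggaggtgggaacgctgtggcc
CDC25A: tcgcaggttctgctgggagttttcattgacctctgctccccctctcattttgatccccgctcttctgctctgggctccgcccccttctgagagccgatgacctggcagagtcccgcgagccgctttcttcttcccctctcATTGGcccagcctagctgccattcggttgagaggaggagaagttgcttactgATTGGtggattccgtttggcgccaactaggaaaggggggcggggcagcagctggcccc
E2F1: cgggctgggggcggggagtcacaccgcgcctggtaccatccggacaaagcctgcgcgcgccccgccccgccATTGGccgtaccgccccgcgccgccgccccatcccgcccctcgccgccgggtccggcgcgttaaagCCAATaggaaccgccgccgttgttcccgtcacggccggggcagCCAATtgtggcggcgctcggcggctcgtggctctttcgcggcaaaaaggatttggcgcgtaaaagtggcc
CDC20: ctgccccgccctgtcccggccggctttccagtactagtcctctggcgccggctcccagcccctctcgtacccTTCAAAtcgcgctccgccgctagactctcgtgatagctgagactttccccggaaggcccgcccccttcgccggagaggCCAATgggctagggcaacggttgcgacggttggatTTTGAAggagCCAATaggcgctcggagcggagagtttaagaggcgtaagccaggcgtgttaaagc
MKI67: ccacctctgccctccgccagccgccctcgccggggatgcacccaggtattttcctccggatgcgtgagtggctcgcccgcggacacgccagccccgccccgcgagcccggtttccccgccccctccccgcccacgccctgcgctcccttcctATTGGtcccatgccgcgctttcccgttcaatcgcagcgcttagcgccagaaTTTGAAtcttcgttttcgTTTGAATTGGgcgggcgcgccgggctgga
*CDT1* held the E2F-type letters at 35 and 23 bases before its start, *CDC20* the CHR letters at 178 and 65, and *MKI67* the CHR letters at 47 and 29. *CDC6* held 3 CCAAT boxes, *E2F1* held 3 and *CDC25A* held 2, with none of the E2F-type or CHR letters searched. Of the 45 genes, 36 had a listed promoter, and 10 of these (27.8%) held E2F-type letters, 11 (30.6%) CHR letters and 26 (72.2%) a CCAAT box. Over the first listed start of 27305 genes the shares were 7.31%, 14.6% and 33.0%. The E2F-type letters stood in 5 of 11 listed promoters of licensing and firing genes and in 3 of 5 of nucleotide and clamp genes, and in none of 9 of spindle and chromosome genes, of which 6 held CHR letters. None of the 5 listed S-phase entry promoters held either set of letters. *AURKA*, *BIRC5*, *CCNE2*, *CDK2*, *FOXM1*, *GINS4*, *MCM4*, *MCM5* and *TTK* were not listed. These matches are letters in a window and no measure of binding. Other spellings of an E2F or CHR site were not searched, so that a window without these letters may still hold one.

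Among the 14 genes of licensing and origin firing, 4 rose and 1 fell in MEC1, and 1 rose and 3 fell in JVM2. These are 35.7% and 28.6% of the 14, against 41.7% and 29.3% of all genes tested. *CDT1*, which loads the MCM helicase onto origins together with *CDC6*, lies on chromosome 16 from 88803789 to 88809258 and had the largest rise of the 45 genes in MEC1. It was at 77.9, 82.8 and 80.3 CPM in MEC1-CTRL and at 114, 107 and 125 CPM in MEC1-2B17 replicates 1, 2 and 3. The JVM2 values lay at 82.6, 75.6 and 73.1 CPM in CTRL and at 64.2, 56.0 and 63.6 CPM in 2B17 cells. The arms did not overlap in either line, and the order was reversed between the lines. The log2FC was 0.52 in MEC1 (SE 0.046, FDR = 2.8e-08) and -0.33 in JVM2 (SE 0.074, FDR = 0.0053). *CDC6*, the ATPase that recruits *CDT1* and the helicase, was at 137, 145 and 139 CPM in MEC1-CTRL and at 160, 161 and 154 CPM in MEC1-2B17. In JVM2 it was at 84.5, 81.0 and 81.5 CPM in CTRL and at 65.6, 63.2 and 63.6 CPM in 2B17 cells. Here too the replicates of the arms were separate in each line and in opposite order, with log2FC values of 0.18 (SE 0.035, FDR = 4.7e-04) and -0.36 (SE 0.059, FDR = 6.2e-04).

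The 6 subunits of the *MCM2* to *MCM7* helicase did not move together. In MEC1, *MCM7* rose by 9.77%, from 728 ± 6.44 to 799 ± 8.43 CPM (log2FC 0.13, SE 0.029, FDR = 9.2e-04), and *MCM4* fell from 472 ± 13.9 to 432 ± 7.06 CPM (log2FC -0.13, SE 0.034, FDR = 0.0045). The other 4 subunits had log2FC values of -0.07 to 0.04 in MEC1 and did not pass the test. In JVM2, *MCM3* was at 292, 280 and 278 CPM in CTRL and at 324, 343 and 317 CPM in 2B17 cells, so that every 2B17 replicate was above every CTRL replicate. This was a log2FC of 0.21 (SE 0.055, FDR = 0.012), and *MCM3* was the one gene of the 45 that rose in JVM2. Without JVM2-CTRL replicate 2 or without replicate 3 it did not pass, and over all replicates left out in turn its FDR was 0.0050 to 0.065. The other 5 subunits had log2FC values of -0.12 to -0.02 in JVM2 and did not pass, although for *MCM2*, *MCM4*, *MCM5* and *MCM7* every 2B17 replicate was below every CTRL replicate. Without JVM2-2B17 replicate 2, *MCM2* (log2FC -0.14, FDR = 0.026) and *MCM7* (log2FC -0.13, FDR = 0.032) passed.

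*MCM10*, which helps to turn the loaded helicase into a moving fork, was at 72.1, 73.8 and 77.3 CPM in JVM2-CTRL and at 59.5, 63.6 and 59.1 CPM in JVM2-2B17. It fell there by 18.4% (log2FC -0.29, SE 0.064, FDR = 0.0042), while in MEC1 it was at 89.0 ± 1.19 and 88.7 ± 3.19 CPM and did not pass (FDR = 0.91). *CDC45*, the helicase cofactor, was nearly level in both lines, at 69.8 ± 1.69 and 69.9 ± 1.55 CPM in MEC1 and at 56.3 ± 1.91 and 55.3 ± 1.43 CPM in JVM2. Of the 4 subunits of the GINS complex, which joins *CDC45* and the helicase, *GINS2* rose in MEC1, from 102 ± 3.22 to 112 ± 3.30 CPM (log2FC 0.13, SE 0.035, FDR = 0.0055). The 3 others had log2FC values of -0.06 to -0.01 in MEC1, and all 4 had values of -0.17 to -0.03 in JVM2 without passing the test.

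Of the 5 genes of nucleotide supply and the sliding clamp, 3 fell in MEC1 and 2 fell in JVM2, where 41.7% and 29.3% of all genes changed. None of the 5 rose by edgeR's quasi-likelihood test, its exact test or DESeq2, with 0 rises also at an unadjusted *P* below 0.05. *RRM2*, the regulated small subunit of ribonucleotide reductase, which makes deoxyribonucleotides, was at 274, 271 and 276 CPM in MEC1-CTRL and at 230, 228 and 229 CPM in MEC1-2B17. JVM2 levels lay at 434, 432 and 438 CPM in CTRL and at 360, 346 and 355 CPM in 2B17 cells. The replicates of an arm lay close together and far from those of the other arm. *RRM2* fell by 16.3% in MEC1 (log2FC -0.26, SE 0.033, FDR = 4.1e-06) and by 18.6% in JVM2 (log2FC -0.30, SE 0.050, FDR = 8.1e-04). *RRM1*, the large subunit of the same enzyme, fell from 291 ± 5.18 to 261 ± 4.13 CPM in MEC1 (log2FC -0.16, SE 0.034, FDR = 7.9e-04) and went from 272 ± 4.43 to 254 ± 18.6 CPM in JVM2, where it did not pass (FDR = 0.26). *TK1*, the thymidine kinase of the salvage route, fell in MEC1 from 108 ± 1.34 to 98.0 ± 7.69 CPM (log2FC -0.15, SE 0.044, FDR = 0.012), but without MEC1-2B17 replicate 2 its log2FC was -0.09 (FDR = 0.084). *TYMS*, which makes thymidylate, was at 108, 93.7 and 99.3 CPM in JVM2-CTRL and at 84.3, 80.3 and 87.9 CPM in JVM2-2B17. It fell in JVM2 (log2FC -0.25, SE 0.068, FDR = 0.015), with an FDR of up to 0.077 when 1 replicate was left out, not passing without JVM2-CTRL replicate 1 or 3. In MEC1 it was at 55.9 ± 1.59 and 54.6 ± 2.10 CPM. *PCNA*, the clamp that holds polymerases on the DNA, did not pass in either line, at 328 ± 7.35 and 332 ± 13.2 CPM in MEC1 (log2FC 0.02, SE 0.037) and at 343 ± 10.01 and 373 ± 25.5 CPM in JVM2 (log2FC 0.12, SE 0.061, FDR = 0.16, and 0.07 without JVM2-2B17 replicate 2).

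All 7 genes of S-phase entry changed in MEC1, with *CDC25A* higher and the 6 others lower. In JVM2, 4 of the 7 changed, all lower. Over all genes tested 41.7% changed in MEC1 and 29.3% in JVM2. Among genes with a mean level at least that of the lowest of the 45, the shares were 52.7% and 30.9%. *CCNE1*, one of the E-type cyclins that activate *CDK2*, was at 40.7, 39.9 and 41.5 CPM in MEC1-CTRL and at 34.6, 33.7 and 32.8 CPM in MEC1-2B17. In JVM2 cells it was at 26.5, 28.5 and 31.8 CPM in CTRL and at 22.02, 23.1 and 19.1 CPM in 2B17 cells. In both lines every 2B17 replicate was below every CTRL replicate, with log2FC values of -0.27 (SE 0.046, FDR = 9.4e-05) and -0.43 (SE 0.10, FDR = 0.0068). *CCNE2*, the other E-type cyclin, had the largest fall of the 45 genes in MEC1, from 29.9, 29.7 and 34.3 CPM to 24.8, 23.1 and 23.8 CPM (log2FC -0.39, SE 0.060, FDR = 3.6e-05). The JVM2 values lay at 21.1 ± 0.211 and 21.9 ± 2.19 CPM, with overlapping arms. *E2F1*, an activating E2F factor, fell from 80.8 ± 1.47 to 70.5 ± 2.69 CPM in MEC1 (log2FC -0.20, SE 0.039, FDR = 4.0e-04) and from 48.9 ± 0.809 to 40.6 ± 1.58 CPM in JVM2 (log2FC -0.27, SE 0.068, FDR = 0.011). *E2F2*, a second activating factor, was at 81.6, 79.0 and 83.9 CPM in MEC1-CTRL and at 74.3, 71.6 and 74.1 CPM in MEC1-2B17. In JVM2 it was at 70.6, 70.7 and 67.6 CPM in CTRL and at 50.03, 45.04 and 51.1 CPM in 2B17 cells, the largest fall of the 45 genes there. The log2FC values were -0.15 (SE 0.037, FDR = 0.0029) and -0.51 (SE 0.069, FDR = 1.3e-04).

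*CDC25A*, the phosphatase that removes the inhibitory phosphates of *CDK2*, was at 76.3, 78.2 and 80.4 CPM in MEC1-CTRL and at 90.9, 83.0 and 87.7 CPM in MEC1-2B17. JVM2 levels lay at 57.1, 57.9 and 57.0 CPM in CTRL and at 44.9, 49.8 and 43.1 CPM in 2B17 cells. It rose in MEC1 (log2FC 0.16, SE 0.040, FDR = 0.0036) and fell in JVM2 (log2FC -0.32, SE 0.072, FDR = 0.0050), with separate arms in both. *CDK2* fell from 139 ± 3.95 to 117 ± 3.15 CPM in MEC1 (log2FC -0.25, SE 0.034, FDR = 6.8e-06), and *CCNA2*, cyclin A2, from 260 ± 4.92 to 226 ± 7.98 CPM (log2FC -0.20, SE 0.037, FDR = 1.9e-04). In JVM2 neither passed, *CDK2* at 211 ± 6.54 and 208 ± 5.36 CPM and *CCNA2* at 169 ± 6.06 and 167 ± 6.31 CPM.

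**Figure D2:**
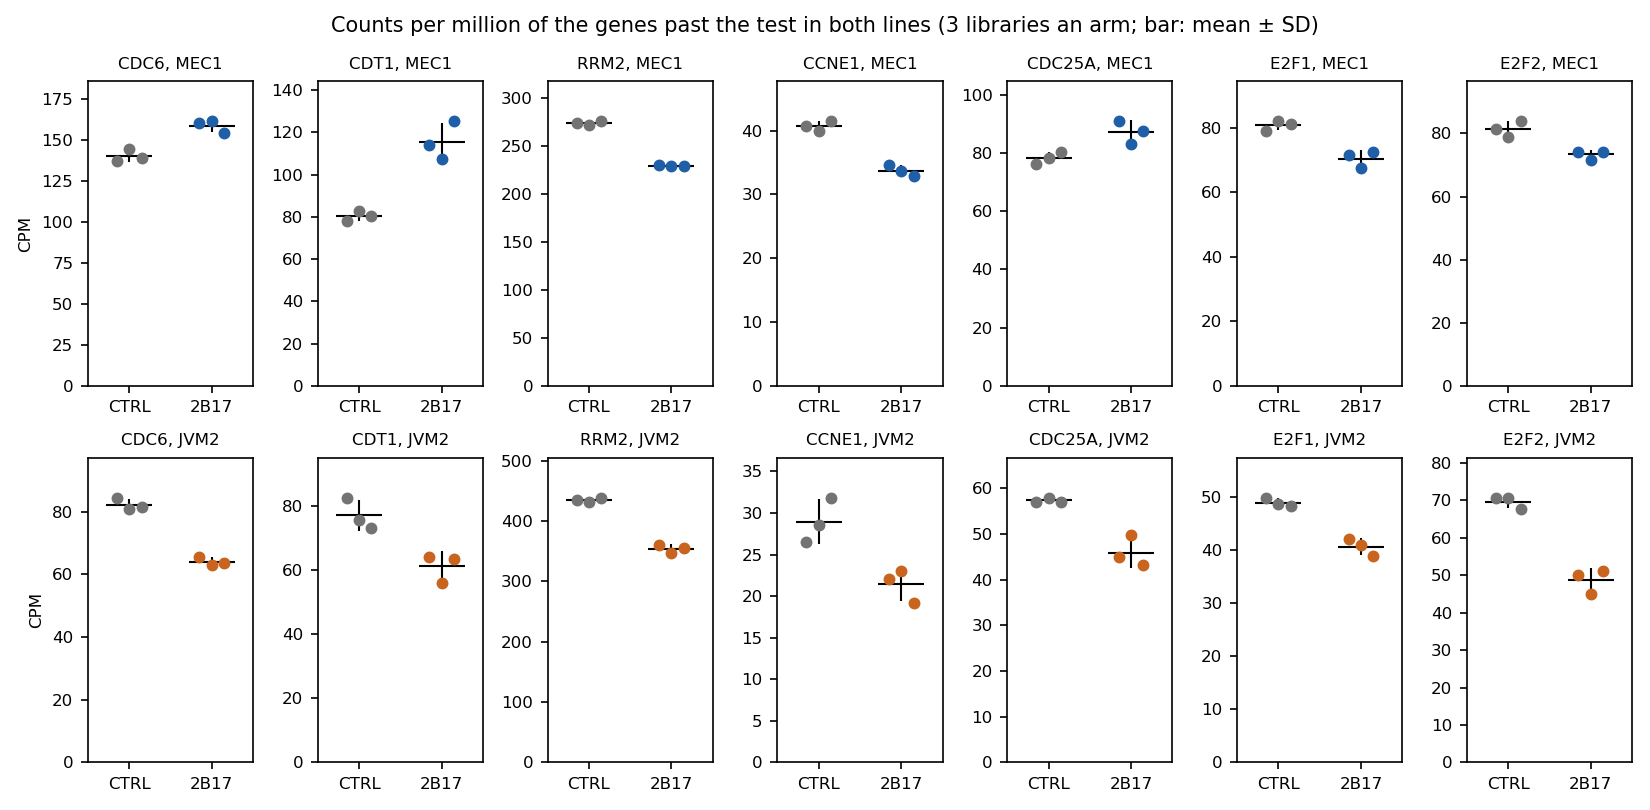
CPM (vertical axes, from 0) of the 7 genes that passed the test in both lines, in MEC1 (top) and JVM2 (bottom), with a point for each of 3 libraries an arm and the mean ± SD as bars. RRM2, CCNE1, E2F1 and E2F2 are lower in 2B17 cells of both lines, and CDC6, CDT1 and CDC25A higher in MEC1-2B17 and lower in JVM2-2B17. The arms are separate in all 14 panels of these genes, which were picked for passing the test. Of all genes, 50.1% had separate arms in MEC1 and 45.2% in JVM2.

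Of the 8 kinases and regulators of mitotic entry, 2 fell in MEC1 and 1 fell in JVM2. This is 25.0% and 12.5% of them, against 41.7% and 29.3% of all genes tested. *CDK1*, the kinase of mitotic entry, was at 170, 176 and 180 CPM in MEC1-CTRL and at 150, 159 and 152 CPM in MEC1-2B17, with separate arms (log2FC -0.19, SE 0.037, FDR = 3.6e-04). In JVM2 cells it was at 104, 116 and 113 CPM in CTRL and at 106, 140 and 117 CPM in 2B17 cells, with replicate 2 the highest, and did not pass (log2FC 0.12, FDR = 0.34, and 0.01 without that replicate). *CCNB1*, cyclin B1, did not pass in either line, at 177 ± 3.11 and 171 ± 5.15 CPM in MEC1 and at 185 ± 1.22 and 184 ± 16.0 CPM in JVM2. *CDC25B*, a phosphatase that activates *CDK1*, was at 59.7, 58.8 and 55.5 CPM in JVM2-CTRL and at 45.05, 34.3 and 43.6 CPM in JVM2-2B17. Its level fell by 29.2% (log2FC -0.50, SE 0.094, FDR = 0.0017). Without replicate 2 of JVM2-2B17 cells the log2FC was -0.39 (FDR = 3.1e-05), and in MEC1 the gene was at 39.0 ± 1.22 and 37.8 ± 2.71 CPM. *FOXM1*, the transcription factor of many G2 genes, fell in MEC1 from 97.6 ± 1.59 to 89.0 ± 3.23 CPM (log2FC -0.13, SE 0.036, FDR = 0.0058). The JVM2 values lay at 114, 111 and 114 CPM in CTRL and at 102, 71.2 and 103 CPM in 2B17 cells, with replicate 2 far below the others. The log2FC there was -0.29 (SE 0.11, FDR = 0.065), and without that replicate -0.14 (SE 0.053, FDR = 0.041). *CCNB2*, *PLK1*, *AURKA* and *AURKB*, further regulators of mitosis, passed in neither line, with log2FC values of -0.05 to 0.07 in MEC1 and -0.19 to 0.07 in JVM2.

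Of the 11 spindle, checkpoint and chromosome genes, 2 rose and 5 fell in MEC1 (63.6%, against 41.7% of all genes). None of the 11 passed in JVM2 by edgeR's quasi-likelihood test, its exact test or DESeq2. By the first of these, 29.3% of all genes changed there. At an unadjusted *P* below 0.05, 3 of the 11 were lower in JVM2 by the quasi-likelihood test and 0 by DESeq2. *MKI67*, whose protein coats mitotic chromosomes and marks cycling cells, was at 432, 433 and 445 CPM in MEC1-CTRL and at 359, 359 and 369 CPM in MEC1-2B17, where it fell by 17.01% (log2FC -0.27, SE 0.033, FDR = 2.0e-06). In JVM2 it was at 393, 371 and 416 CPM in CTRL and at 336, 245 and 403 CPM in 2B17 cells, where the arms overlapped and replicate 2 was the lowest. The log2FC there was -0.26 (SE 0.13, FDR = 0.15), and -0.09 without that replicate (FDR = 0.27). *TOP2A*, the topoisomerase that untangles sister chromosomes, was at 673, 673 and 683 CPM in MEC1-CTRL and at 589, 596 and 561 CPM in MEC1-2B17, with separate arms (log2FC -0.22, SE 0.032, FDR = 2.1e-05). JVM2 levels lay at 508 ± 10.7 and 498 ± 31.9 CPM. *KIF11*, the kinesin that pushes the spindle poles apart, fell from 208 ± 3.91 to 181 ± 7.07 CPM in MEC1 (log2FC -0.20, SE 0.038, FDR = 3.1e-04). *CENPE*, a kinetochore kinesin, fell from 182 ± 4.43 to 158 ± 3.52 CPM (log2FC -0.20, SE 0.036, FDR = 1.3e-04), and *BUB1B*, of the spindle checkpoint, from 160 ± 2.76 to 146 ± 4.44 CPM (log2FC -0.13, SE 0.035, FDR = 0.0048).

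The 2 genes of this group that rose in MEC1 were *BUB1* and *CDC20*. *BUB1*, a checkpoint kinase at the kinetochore, was at 147, 156 and 156 CPM in MEC1-CTRL and at 177, 179 and 177 CPM in MEC1-2B17 (log2FC 0.22, SE 0.036, FDR = 6.4e-05). In JVM2 cells it was at 193 ± 6.18 and 180 ± 5.19 CPM, every 2B17 replicate below every CTRL replicate, and did not pass (FDR = 0.20). *CDC20*, which activates the ubiquitin ligase of anaphase and is held by the checkpoint, was at 112, 118 and 128 CPM in MEC1-CTRL and at 133, 136 and 140 CPM in MEC1-2B17 (log2FC 0.19, SE 0.041, FDR = 7.2e-04). In JVM2 it went from 121 ± 6.57 to 108 ± 7.69 CPM and did not pass (FDR = 0.093). *BIRC5*, *KIF23*, *CENPF* and *TTK*, of the chromosomal passenger complex, the midzone and the kinetochore, passed in neither line. *TTK* went from 88.1 ± 3.66 to 77.7 ± 7.51 CPM in JVM2, with replicate 2 the highest of the 2B17 replicates, and passed without that replicate (log2FC -0.26, FDR = 5.3e-04).

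Across the lines, 7 of the 45 genes changed in both. *RRM2*, *CCNE1*, *E2F1* and *E2F2* were lower in both, which is 4 of 45 against 8.37% of the 12243 genes tested in both lines that changed in both in the same direction. *CDC6*, *CDT1* and *CDC25A* rose in MEC1 and fell in JVM2, which is 3 of 45 against 7.43% of all genes that changed in both in opposite directions. No gene of the 45 rose in both lines by edgeR's quasi-likelihood test, its exact test or DESeq2, with 0 also at an unadjusted *P* below 0.05. A further 17 changed in MEC1 and did not pass in JVM2, 4 changed in JVM2 and did not pass in MEC1, and 17 passed in neither. The values were below 0 in both lines for 26 genes, above 0 in both for 3 and of opposite sign for 16. Pearson's r between the log2FC of the 2 lines was -0.08 over the 45 genes, which share the libraries of each line.

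Whether the 2 lines differed was tested with an interaction term fitted over all 12 libraries, which passed for 16 of the 45 genes, against 32.0% of the 15130 genes tested, with 2B17 cells relatively higher in MEC1 for 10 of them and relatively lower for 6. The largest difference was that of *CDT1*, 0.86 on the log2 scale (SE 0.091, FDR = 3.4e-07), followed by *CDC6* at 0.54 (SE 0.069, FDR = 4.3e-06) and *CDC25A* at 0.48 (SE 0.079, FDR = 8.7e-05). *CDC25B* (0.45), *E2F2* (0.37), *CDC20* (0.36), *BUB1* (0.32), *MCM10* (0.29), *MCM7* (0.25) and *TYMS* (0.22) were also relatively higher in MEC1. *CCNE2* (-0.43), *CDK1* (-0.31), *CDK2* (-0.23), *CCNA2* (-0.18), *TOP2A* (-0.18) and *MCM3* (-0.17) were relatively lower there. With 1 of the 12 libraries left out in turn, the difference no longer passed in 9 of 12 fits for *CCNA2* and *TOP2A*, in 7 for *MCM3* and *TYMS* and in 5 for *CDK1*, and it passed in every fit for the other 11. Without JVM2-2B17 replicate 2 the difference was -0.18 for *CDK1* (FDR = 0.052). Among the genes lower in both lines, *RRM2* (0.04, SE 0.058), *E2F1* (0.07, SE 0.074) and *CCNE1* (0.16, SE 0.10) did not pass, with FDR values of 0.25 to 0.60. *MKI67* had a difference of 0.00 (SE 0.14), beside log2FC values of -0.27 in MEC1 and -0.26 in JVM2. With 1 library left out this difference ranged from -0.17 to 0.16, so that an equal change in the lines was not shown. The interaction of *PCNA* and *CCNB1* did not pass either.

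**Figure D3:**
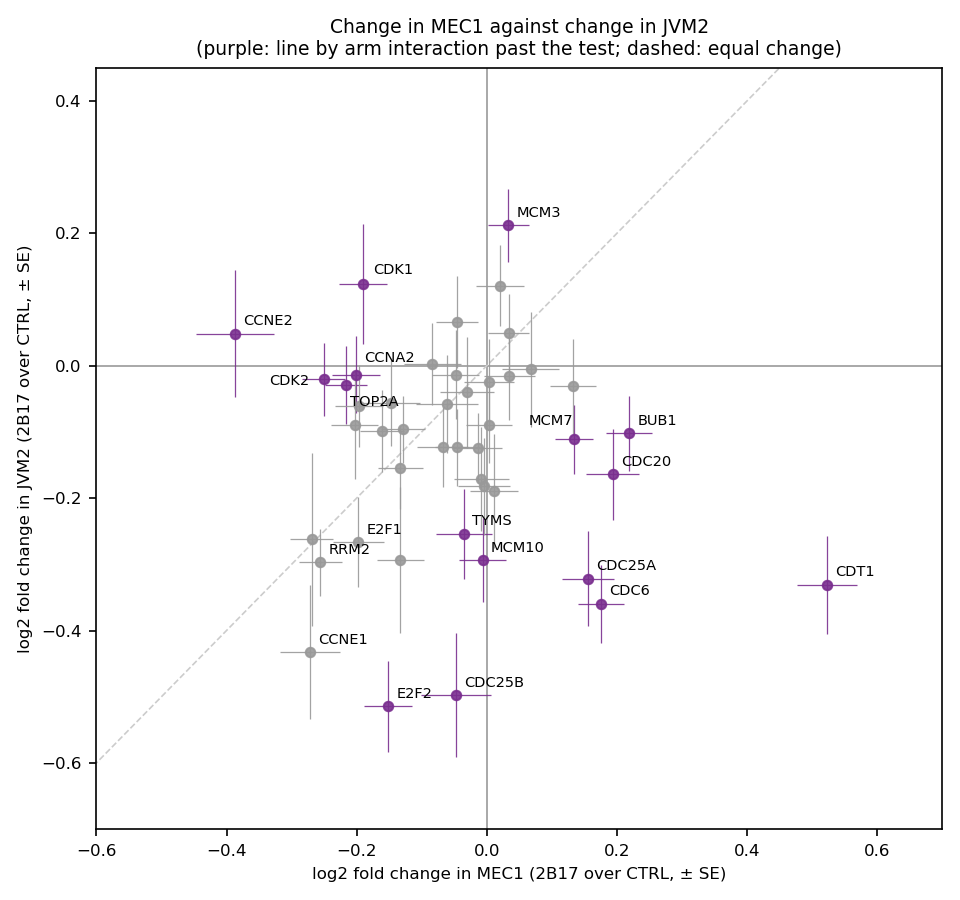
Log2FC of 2B17 against CTRL cells in JVM2 (vertical axis) against that in MEC1 (horizontal axis) for the 45 genes, each with its SE, and a dashed line of equal change. The 16 purple points passed the test of the difference between lines, with CDT1 farthest to the lower right, and the points show no common line (Pearson's r of -0.08).

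The groups also differed in how each library moved. The median of the 7 S-phase entry genes, taken as the log2 of CPM over the CTRL mean, was -0.18, -0.26 and -0.24 in MEC1-2B17 replicates 1, 2 and 3 and -0.22, -0.20 and -0.33 in those of JVM2-2B17, while no CTRL library was farther than 0.04 from 0. For the 14 licensing and firing genes it was 0.06, -0.03 and -0.01 in MEC1-2B17 and -0.11, -0.07 and -0.12 in JVM2-2B17. The medians of the 8 mitotic entry genes were -0.02, -0.04 and -0.04 in MEC1-2B17 and -0.06, -0.15 and -0.10 in JVM2-2B17. Nucleotide and clamp genes, 5 in all, had -0.14, -0.16 and -0.04 in MEC1-2B17 and -0.10, -0.17 and -0.19 in JVM2-2B17. Spindle and chromosome genes, 11 in all, had -0.05, -0.01 and -0.16 in MEC1-2B17 and -0.14, -0.03 and -0.10 in JVM2-2B17. Every role but licensing and firing was below 0 in all 2B17 libraries. Over all 45 genes the medians were -0.01, -0.05 and -0.05 in MEC1-2B17, and -0.10, -0.07 and -0.12 in JVM2-2B17. Over all genes with counts in every library, no library of either line was farther than 0.01 from 0.

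**Figure D4:**
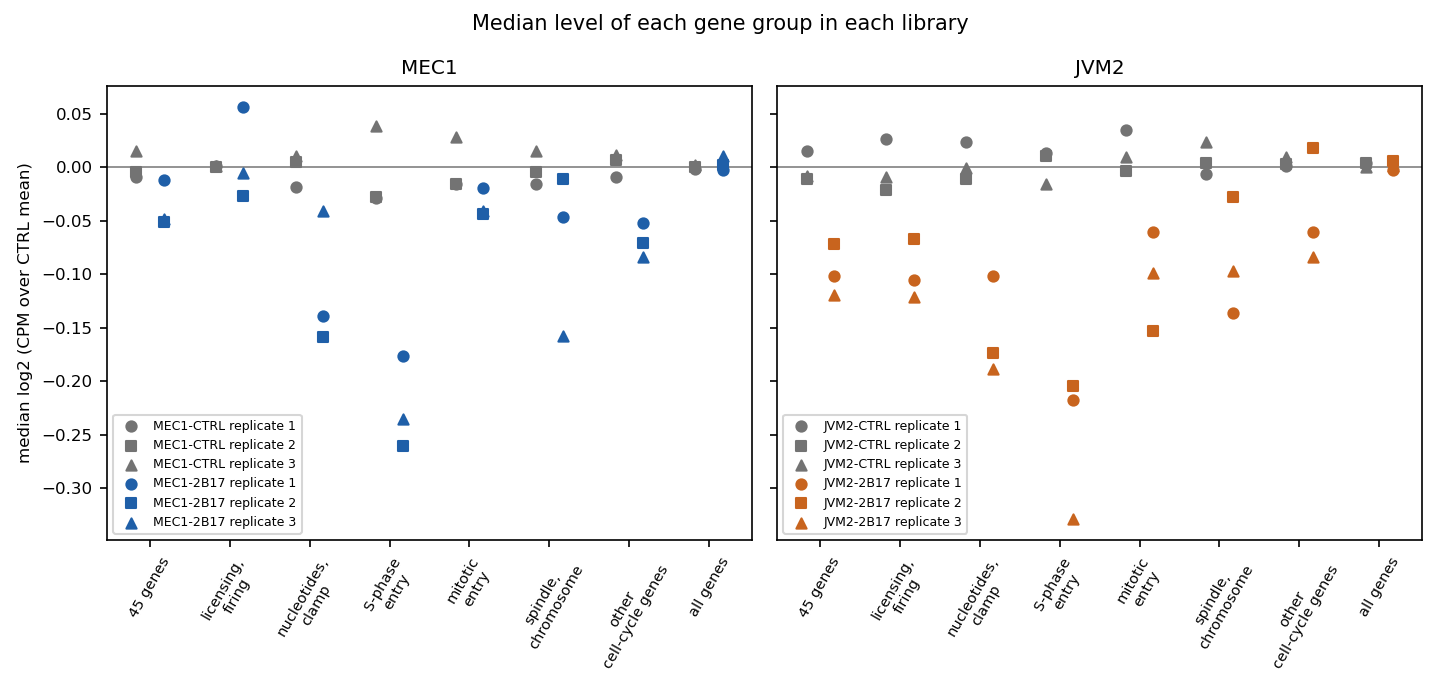
Median over the genes of a group of the log2 of CPM over the CTRL mean (vertical axis), 1 point a library, for the 45 genes, their 5 roles, 133 other genes of replication and mitosis, and all genes (horizontal axis). The S-phase entry genes lie between -0.18 and -0.33 in every 2B17 library of both lines, and all genes within 0.01 of 0. Every role but licensing and firing lies below 0 in all 2B17 libraries.

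Levels between genes are compared per length, as the CTRL mean in CPM per kb of annotated exons. *PCNA* was the highest of the 45 in both lines, at 233 in MEC1-CTRL and 245 in JVM2-CTRL. *MCM3* (159), *MCM7* (147) and *TOP2A* (106) followed in MEC1, and *MCM2* (169), *MCM7* (82.2) and *TOP2A* (79.7) in JVM2. *CCNE2* was the lowest in both, at 7.11 and 4.81. The order of the 4 highest was the same in MEC1-2B17, with *PCNA* at 237, *MCM3* at 163, *MCM7* at 161 and *TOP2A* at 91.3. In JVM2-2B17 it was not, with *PCNA* at 266, *MCM2* at 155, *MCM3* at 90.0, *TOP2A* at 78.1 and *MCM7* at 76.1. Annotated exons cover all transcripts of a gene, 9153 bases for *RRM2* against 3673 in its longest protein-coding transcript. The order depends on this length.

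Another 133 genes of replication and mitosis, chosen by function, were followed in both lines. In MEC1, 68 changed (51.1%, against 41.7% of all genes and 52.7% of genes at the level of the 45 or above), 14 higher and 54 lower, with a median log2FC of -0.07. In JVM2, 36 changed (27.1%, against 29.3% of all genes), 9 higher and 27 lower, with a median of -0.05. Without JVM2-CTRL replicate 3 the count in JVM2 was 22. Without JVM2-2B17 replicate 2 it was 51, 12 higher and 39 lower, where 34.1% of all genes changed. The 23 genes of spindle motors, the midzone and cytokinesis had 15 falls in MEC1 and 3 in JVM2, with 0 rises in either line by any of the 3 tests or at an unadjusted *P* below 0.05. Of the 23 genes of replicative polymerases and fork proteins, 4 rose and 6 fell in MEC1 and 4 fell in JVM2. In both lines 18 changed, 13 of them lower in both, 0 higher in both and 5 in opposite directions, where 8.37% of all genes did so in the same and 7.43% in opposite directions.

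*E2F7*, a repressive E2F factor, was the one that changed by more than 1.3-fold in both lines, from 28.7 ± 0.677 to 12.7 ± 0.133 CPM in MEC1 (log2FC -1.17, SE 0.055, FDR = 4.7e-12) and from 51.8 ± 1.99 to 37.0 ± 3.10 CPM in JVM2 (log2FC -0.48, SE 0.078, FDR = 5.6e-04). *CLSPN*, the checkpoint adaptor claspin, fell in both, with log2FC values of -0.22 (FDR = 1.8e-04) and -0.58 (FDR = 2.1e-05). *TFDP1*, the partner of E2F factors in DNA binding, fell from 328 ± 7.90 to 232 ± 5.45 CPM in MEC1 (log2FC -0.50, FDR = 1.3e-09) and was at 87.1 ± 3.82 and 86.1 ± 4.35 CPM in JVM2. *SMC2*, a condensin subunit, fell in MEC1 from 348 ± 7.95 to 239 ± 7.98 CPM (log2FC -0.54, FDR = 6.7e-10) and did not pass in JVM2 (log2FC -0.10). It was at 192, 224 and 195 CPM in JVM2-2B17 replicates 1, 2 and 3. With a JVM2 library left out its log2FC was -0.17 to -0.05, and it passed in 1 of 6 fits (FDR = 0.015). *SMC1A*, a cohesin subunit, was level in MEC1 at 234 ± 3.94 and 236 ± 1.64 CPM and fell in JVM2 from 387 ± 9.78 to 263 ± 32.6 CPM (log2FC -0.56, FDR = 2.1e-04). The largest rises in MEC1 were those of *E2F5* (log2FC 0.36), *E2F6* (0.21) and *CKS1B* (0.19), the first a factor that works with pocket proteins and the last a subunit of CDK complexes. In JVM2 the top rises were *RRM2B* (0.35), the p53-induced small subunit of ribonucleotide reductase, *SPC24* (0.32), of the kinetochore, and *GMNN* (0.31), geminin, which binds *CDT1* and prevents licensing. Of these, *RRM2B* and *SPC24* fell in MEC1, by 0.13 and 0.17 on the log2 scale, and *GMNN* did not pass there. *RRM2B* did not pass there in 4 of the 6 fits with a library left out, those without replicate 2 or 3 of CTRL or replicate 1 or 3 of 2B17 cells, with an FDR of up to 0.10.

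Several of the 45 genes share exon bases with a neighbour on the other strand, and the sources used here do not state whether reads were counted by strand, so that reads there cannot be assigned. *ENOSF1* covers 39.9% of the exon bases of *TYMS* and rose in MEC1 (log2FC 0.39, FDR = 8.9e-07), where *TYMS* did not pass. *ENOSF1* was not among the genes tested in JVM2, where *TYMS* fell. *INTS8* covers 37.0% of those of *CCNE2* and did not pass in either line (log2FC values of 0.01 and -0.02). *EXOSC9* covers 9.24% of *CCNA2* and fell in MEC1 (log2FC -0.21, FDR = 2.0e-04). In JVM2 its log2FC was 0.15 (FDR = 0.086), with every 2B17 replicate above every CTRL replicate. *ITFG2* covers 15.9% of *FOXM1*, with log2FC values of 0.09 in MEC1 and 0.18 in JVM2 that did not pass. *AP4M1* covers 7.90% of *MCM7*, rose in MEC1 (log2FC 0.22, FDR = 0.020) and did not pass in JVM2 (log2FC 0.07, FDR = 0.73). Antisense non-coding genes cover 23.6% of *MCM2*, 21.0% of *GINS4*, 14.5% of *CDK2*, 11.6% of *PLK1* and 10.9% of *GINS3*. Near-identical copies share 9.03% of the 50-base stretches of *CDC20* and 5.27% of those of *RRM2*. Of the 7 genes that changed in both lines, *CDC6*, *CDT1*, *RRM2*, *CCNE1*, *CDC25A*, *E2F1* and *E2F2*, none overlaps another gene in its exons.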

How the data were processed

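Total RNA of 12 libraries, 3 for each arm (2B17 and CTRL) of the JVM2 and MEC1 lines, was measured by RNA sequencing, and groups and replicate numbers were taken from the sample titles. After trimming and alignment to hg38, the authors deposited for each line raw read counts per Ensembl gene and replicate, without normalization. The submitters' processing notes name Trimmomatic, TopHat2 2.0.14 and HTSeq, and the strand setting of the counting is not given in the sources used here. The deposited tables also hold the authors' log2 fold changes, log2 mean expression, p-values and adjusted p-values of edgeR and DESeq2, and the authors' rounded normalized values per sample (a score), none of which was used. Every gene of a table has a sum of at least 10 counts over its 6 libraries.

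Each line was fitted on its own in R 4.3.3 with edgeR 4.0.16, with TMM scaling, filterByExpr at its defaults (minimum count 10, minimum total count 15) and the quasi-likelihood test, and the FDR is the Benjamini-Hochberg adjusted value for every gene tested in the fit. SEs were derived from the F statistic. The line by arm interaction was fitted over all 12 libraries and the genes in both tables. The common biological coefficient of variation was 4.22% in MEC1 and 6.92% in JVM2. The labels call the samples of a group triplicates and the methods biological replicates, and nothing says that they came from separate transfections. The method was tested on simulated data. Alternatives were DESeq2 1.42.0, edgeR's exact test, a call by both of these, RLE scaling, library size only, no filter, a filter of 10 counts in each library, a block for the replicate number, and each library left out in turn.

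The members and the lists of other genes were chosen with earlier results of these data known. Named genes were those called in both lines, the 3 largest rises and falls of each line, those whose interaction passed, and MKI67, PCNA, TOP2A, CDK1 and CCNB1. The other members are also given, grouped by role. Of the 133 other genes, the 3 largest called rises and falls of each line and those called in both with a fold over 1.3 in each are named. A second identifier with the symbol TFDP2, absent from GENCODE v44, was left out. Positions, exon overlaps and 50-base stretches are from GENCODE v44 on GRCh38, and promoters are from RefSeq on GRCh38.p14.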

Additional observations from a re-analysis of the deposited data

Results flagged for a closer look

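For 16 of the 45 genes the change with UGT2B17 differed between the lines by edgeR's interaction test. Of all 15130 genes tested, 32.0% did so. The difference, MEC1 minus JVM2 on the log2 scale, was 0.86 for *CDT1*, 0.54 for *CDC6*, 0.48 for *CDC25A*, 0.45 for *CDC25B*, 0.37 for *E2F2*, 0.36 for *CDC20*, 0.32 for *BUB1*, 0.29 for *MCM10*, 0.25 for *MCM7* and 0.22 for *TYMS*. It was -0.43 for *CCNE2*, -0.31 for *CDK1*, -0.23 for *CDK2*, -0.18 for *CCNA2*, -0.18 for *TOP2A* and -0.17 for *MCM3*. For *CCNA2*, *TOP2A*, *MCM3*, *TYMS* and *CDK1* it no longer passed in 5 to 9 of 12 fits with 1 library left out. The licensing genes *CDT1* and *CDC6* and the phosphatase gene *CDC25A* passed the test within each line in opposite directions, which none of the remaining 13 did. Both JVM2 arms carry the same vector and selection, and the MEC1 arms carry different ones, so that the line and the kind of control cannot be told apart. Depth also differed between the lines, and the sequencing site of each library is not given.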

How the results depend on the processing

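The count of the 45 genes that changed in MEC1 was 24 under every alternative with all libraries and 23 to 24 with 1 library left out. In JVM2 it was 11 or 12 under the other tools, scalings and filters, and 9 to 19 with 1 library left out, the 19 without JVM2-2B17 replicate 2. Of all genes tested by the main test, 41.7% changed in MEC1 and 29.3% in JVM2, and 34.1% in JVM2 without that replicate. Shares of all genes under the other settings are not given here. The interaction passed for 16 genes by DESeq2 and under the other scalings and filters, and was not run with the exact test. It passed for 11 to 16 with 1 library left out. For the 133 other genes the count was 55 to 71 in MEC1 and 31 to 37 in JVM2 under the other tools, scalings and filters. With 1 library left out it was 53 to 64 and 22 to 51, the 22 without JVM2-CTRL replicate 3 and the 51 without JVM2-2B17 replicate 2. The causes were not tested.

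The replicate numbers were not shown to pair the samples. Same-numbered deviations had correlations of -0.042, -0.0067 and 0.040 in MEC1 and 0.086, 0.12 and -0.0059 in JVM2. With 3 libraries an arm, such values cannot settle whether the samples were paired. With the replicate block 24 of the 45 genes changed in MEC1 and 15 in JVM2, *FOXM1*, *MKI67*, *PLK1* and *TTK* being added, and the interaction passed for 17. For the 133 other genes the block gave 70 and 43. *FOXM1* also passed in JVM2 by DESeq2 and the exact test, and *RRM2B* did not pass in MEC1 by DESeq2. The interaction of *MKI67* was 0.024 with the block.

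Signs changed with 1 library left out only for values near 0 that did not pass. In MEC1 the log2 fold changes ranged from -0.032 to 0.022 for *MCM10*, -0.0020 to 0.059 for *PCNA*, -0.096 to 0.0033 for *CDC25B* and -0.0092 to 0.046 for *GMNN*. In JVM2 they ranged from -0.067 to 0.037 for *GINS2*, -0.033 to 0.099 for *CCNE2*, -0.039 to 0.015 for *CCNA2*, -0.040 to 0.0015 for *CDK2*, -0.086 to 0.026 for *CCNB1*, -0.081 to 0.0075 for *TOP2A* and -0.056 to 0.016 for *TFDP1*. The interaction ranged from -0.076 to 0.048 for *CCNB1* and -0.17 to 0.16 for *MKI67*. JVM2 libraries held fewer counts than MEC1 libraries, and its SEs had a median of 0.066 over the 45 genes, against 0.037 in MEC1.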
